A study of Mus musculus with 24 samples.

Results

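Gene expression in the heart of mdx mice, which lack dystrophin, was set against that of WT mice. The 6 arrays compared, out of 24 in the series, were those whose titles name cardiac muscle and either mdx or WT, 3 of each. All mice were males aged 2 months. mdx mice carried the strain label C57BL6/10J and WT mice C57BL/6J, so that dystrophin loss and strain cannot be told apart. The same fit held 3 hearts of Cmah KO mdx mice (C57BL6/10J), which lack both dystrophin and the enzyme that makes the sialic acid N-glycolylneuraminic acid, and 3 of Cmah KO mice (C57BL/6J), which lack that enzyme alone. Gastrocnemius, a calf muscle, was measured in the same mice on the same platform. By the animal numbers, a replicate number of mdx or WT names different mice in heart and gastrocnemius. Values of both tissues listed by replicate are therefore not paired by mouse.

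Dystrophin ties the actin cytoskeleton of muscle cells to a membrane complex that binds the surrounding matrix. In mdx mice a premature stop codon removes the full-length protein. Limb muscle of young mdx mice goes through cycles of fibre death and repair with inflammation, whereas their heart disease is known to appear later in life. Dystrophin loss in humans causes Duchenne muscular dystrophy, in which cardiomyopathy is a leading cause of death.

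Array medians of the 6 hearts lay between 45.0 and 49.0 intensity units, and correlations between pairs of these arrays between 0.945 and 0.991. Gapdh control probes near the 3′ end exceeded those near the 5′ end by a log2 difference of 0.98 in mdx replicate 2 and 1.09 in WT replicate 2. The difference was 0.44 to 0.48 in the other 4 arrays. A larger difference is a sign of less intact RNA. Cmah KO mdx replicate 2 and Cmah KO replicate 3 stood apart, with Gapdh differences of 4.43 and 4.29 and correlations of 0.529 to 0.872 with the 6 arrays. Values that use those groups are given without these 2 arrays where stated. The heart identity held on all 6 arrays, where Myh6, the main ventricular myosin of the adult mouse, read 12.89 to 13.22 log2 intensity. The labels do not say whether whole hearts or chambers were taken.

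No probe set differed between mdx and WT hearts beyond the spread between arrays in the main test. Of 29421 probe sets tested, 0 passed a Benjamini-Hochberg adjusted p below 0.05 in limma's moderated test (0%). In that test 103 had an unadjusted p below 0.05 (0.350%), and the smallest adjusted p was 0.999985. The share of 0.350% lies far below the share of 0.05 expected on average where nothing differs. The 0 calls therefore do not show that the hearts are alike. Fitted to the 6 arrays alone, 749 had an unadjusted p below 0.05, and 714 without the 2 hearts that stood apart, with 0 passing the adjusted threshold in limma and smallest adjusted p values of 0.864 and 0.513. With array weights, which give less weight to arrays with large residuals, 133 probe sets passed (0.452%), 72 higher and 61 lower in mdx. In that fit WT replicate 1 received a weight of 9.66, against 0.54 and 1.44 for the other 2 WT arrays, and without WT replicate 1 the weighted fit called 2 probe sets, of which 0 were among the 133. The differences below are therefore given as measured values on the log2 intensity scale with the standard error of the fit (SE, n = 3 arrays per group), and none passed the main test. This SE pools the spread of all 12 heart arrays, the 2 that stood apart included. Fitted to the 6 arrays alone, it was smaller for 35 of the 38 probe sets named by the rule, at a median of 0.715 times the value printed (0.365 to 1.13 times). The smallest p that a two-sided exact permutation test of 3 against 3 arrays can give is 0.1.

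Dmd, the gene that encodes dystrophin, checks the labels. The brightest Dmd probe set read 9.01, 8.44 and 9.12 in mdx hearts, against 9.89, 9.91 and 10.07 in WT hearts. All mdx arrays lay below all WT arrays, and the difference was -1.10 ± 0.52. The second probe set overlapped (-0.77 ± 0.92), and 2 dimmer ones differed by -0.57 ± 0.67 and 0.68 ± 0.53. In gastrocnemius the brightest probe set differed by -1.80, with the groups again apart. Of 23 members of the dystrophin complex and membrane linkers tested (median difference 0.18), Dmd alone had groups that did not overlap. Over all genes tested, mdx lay below WT on every array for 3.90% and above for 3.97%. Utrn, the dystrophin relative utrophin, read 11.78, 12.26 and 12.15 in mdx hearts, against 12.05, 11.94 and 11.84 in WT hearts. Itga7, a laminin receptor of muscle, differed by 0.77 ± 0.71, and Plec, the linker plectin, by 0.82 ± 0.70, both with the lowest value in WT replicate 2. Dag1, the dystroglycan that anchors the complex, differed by 0.43 ± 0.66. Cmah (0.12 ± 0.82) and Nnt, a mitochondrial transhydrogenase (0.10 ± 0.37), had overlapping groups.

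**Figure D1:**
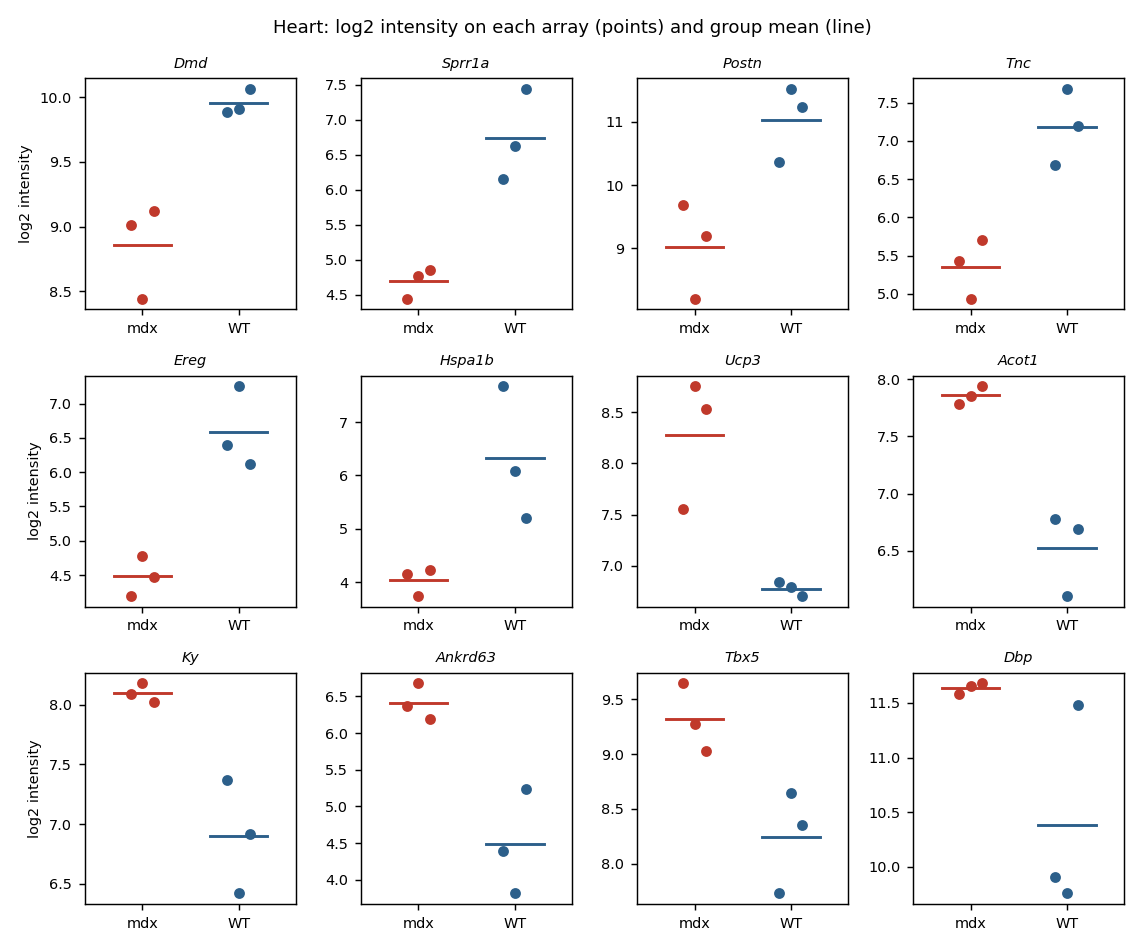
Log2 intensity of 12 genes on each mdx heart array (left, red) and each WT heart array (right, blue), with lines at the group means; each panel has its own vertical scale. The 3 mdx values of Sprr1a lie between 4.44 and 4.86, below the WT values of 6.15 to 7.44.

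The genes that read lower in mdx hearts included several of the extracellular matrix and of stressed heart muscle. The smallest p among lower probe sets belonged to Sprr1a, a small proline-rich protein known to be induced in stressed cardiomyocytes. It read 4.44, 4.77 and 4.86 in mdx hearts, against 6.15, 6.63 and 7.44 in WT hearts (-2.05 ± 0.44). No mdx array came within 1 unit of a WT array. Postn, the matrix protein periostin made by activated fibroblasts, read 9.68, 8.20 and 9.19 in mdx hearts, against 10.36, 11.52 and 11.23 in WT hearts (-2.01 ± 0.49). Tnc, the matrix glycoprotein tenascin-C, read 5.42, 4.94 and 5.71 in mdx hearts, against 6.68, 7.68 and 7.20 in WT hearts (-1.83 ± 0.54). Both genes kept the groups apart. Cthrc1, a secreted protein of remodelling matrix, read 3.91, 3.69 and 4.29 in mdx hearts, against 4.45, 7.31 and 6.65 in WT hearts, where replicate 1 lay close to the mdx arrays. Ereg, the epidermal growth factor receptor ligand epiregulin, read 4.19, 4.78 and 4.48 in mdx hearts, against 6.39, 7.25 and 6.11 in WT hearts (-2.10 ± 0.61). Fbn2, the microfibril protein fibrillin 2, differed by -1.14 ± 0.38, Col8a2, a short-chain collagen, by -1.61 ± 0.58, Nox4, a superoxide-producing oxidase, by -1.40 ± 0.48, and Tnmd, the tendon protein tenomodulin, by -1.44 ± 0.52. In all 4 of these genes the mdx arrays lay below the WT arrays. The other genes that the naming rule took were 3110040M04Rik (-1.64), Mgam, an intestinal-type glucosidase (-1.38), Cep85, a centrosome protein (-1.21), Pisd-ps3, a pseudogene (-1.80), and Trbv1, a T cell receptor segment (-1.36). A second probe set of Cep85 differed by 0.46, in the other direction. All mdx values of Ereg, Cthrc1, Tnmd, Mgam and 3110040M04Rik lay at or below the filter cut of 4.78 log2. These probe sets entered the test through arrays of other groups, and their mdx values lie at the low end of the scale. For Sprr1a only the mdx value of 4.86 lay above the cut.

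Of 30 members of the extracellular matrix and fibrosis list tested, 27 read lower and 3 higher in mdx hearts, with a median difference of -0.62. Over all 13128 genes tested, 6051 read lower and 7077 higher, with a median of 0.03. All 3 mdx arrays lay below all 3 WT arrays for 11 of the 30 members, against 3.90% of all genes, and above them for 1, against 3.97% of all genes. That 1 was the protease Mmp9, named after its values were seen (4.57, 4.10 and 3.94 in mdx hearts, against 3.82, 3.22 and 3.94 in WT hearts), where the closest arrays differ by less than the rounding. All of these Mmp9 values lay below the filter cut of 4.78 log2. Timp1, an inhibitor of matrix proteases, read 7.26, 6.68 and 7.69 in mdx hearts, against 8.40, 7.92 and 8.86 in WT hearts (-1.18 ± 0.52). Eln, which encodes elastin, read 7.88, 6.69 and 7.80 in mdx hearts, against 9.04, 8.55 and 8.78 in WT hearts (-1.34 ± 0.59). The fibrillar collagens Col1a1 (-0.22 ± 0.37) and Col3a1 (-0.74 ± 0.59), named after their values were seen, had overlapping groups. The other members below WT on all arrays, also named after their values were seen, were Cilp, Col5a2, Col8a1, Lox, Mmp3, Mmp14 and Sparc, at -0.28 to -1.48. Col8a1, the partner of Col8a2, read 9.20, 9.06 and 8.95 in mdx hearts, against 10.03, 10.16 and 10.12 in WT hearts. Array weights called 2 members, Tnc and Eln, both lower, against 0.236% of all genes (0.335% were called higher). The list level was lowest in mdx replicate 2 (median deviation from the 6 arrays of -0.60) and highest in WT replicate 3 (0.66), and the median was -0.32 without WT replicate 3 and down to -0.75 without any other array. Fewer cells of a type and less RNA per cell cannot be told apart in such tissue extracts.

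**Figure D2:**
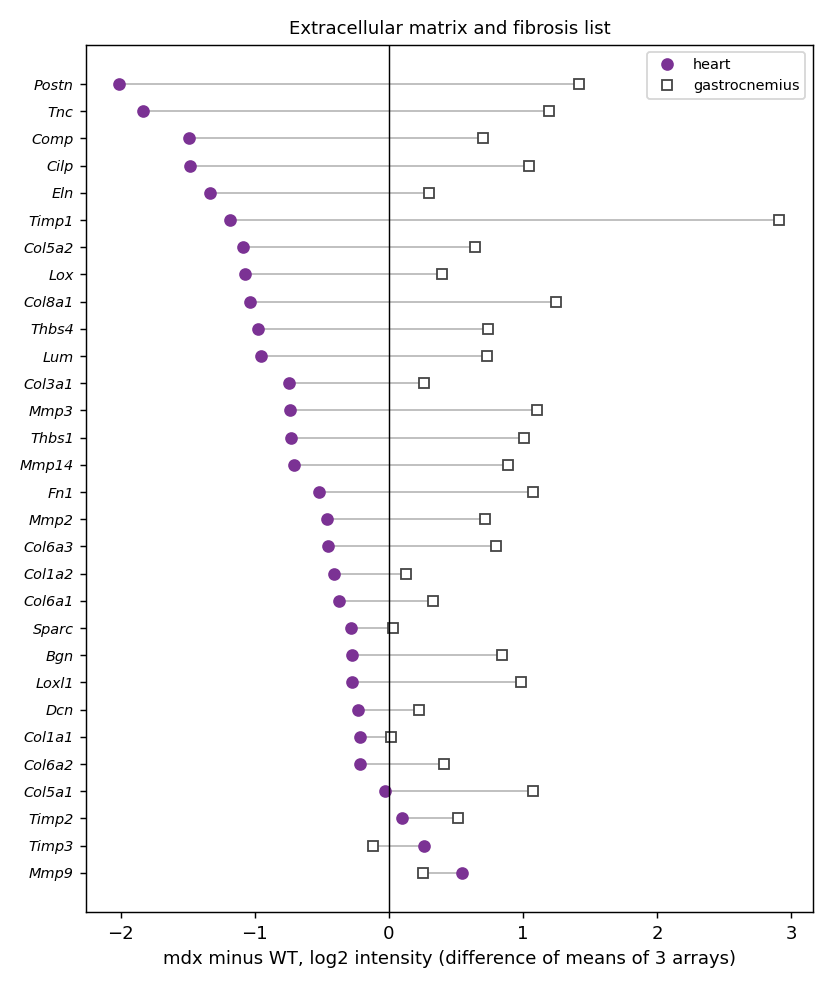
Difference of group means, mdx minus WT, in log2 intensity for the 30 matrix genes in heart (filled circles) and gastrocnemius (open squares), ordered by the heart value; a grey line joins both tissues of a gene. Of the 30 genes, 27 lie left of 0 in heart and 29 lie right of 0 in gastrocnemius.

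In limb muscle the matrix genes read in the other direction. In gastrocnemius 29 of the 30 matrix genes were higher in mdx, with a median difference of 0.73, and 10 had all mdx arrays above all WT arrays, against 4.15% of all genes (2.46% had them below). Over all genes 6852 of 13128 were higher there, with a median of 0.02. Timp1 read 8.26, 9.93 and 9.19 in mdx gastrocnemius, against 6.17, 6.56 and 5.91 in WT gastrocnemius. Cilp, a matrix protein of cartilage and fibrotic tissue, read 7.36, 6.55 and 6.56 in mdx hearts, against 7.94, 8.16 and 8.81 in WT hearts. In gastrocnemius Cilp read 10.82, 10.87 and 10.84 in mdx mice, against 9.80, 9.95 and 9.64 in WT mice. For Cilp the groups were apart in both tissues, in opposite directions. A test of the difference between the tissues over 31070 probe sets called 0 (0%), with 727 at an unadjusted p below 0.05. Without the 2 hearts that stood apart, an alternative chosen after the data were seen, it called 8 (0.0257%). Cilp was among them (heart minus gastrocnemius -2.53, adjusted p = 0.0167 in limma). Timp1 (-4.10, adjusted p = 0.0763) and Col8a1 (-2.28, adjusted p = 0.0611) did not pass there.

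Of 13128 genes, 52 (0.396%) had all mdx arrays below all WT arrays in heart and above them in gastrocnemius, and in 16 (0.122%) the reverse held. In 16 genes (0.122%) mdx lay above WT in both tissues and in 26 (0.198%) below in both.

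Macrophage genes also read mostly lower in mdx hearts and higher in mdx gastrocnemius. Of 24 members tested, 21 read lower in mdx hearts (median -0.38), whereas all 24 read higher in mdx gastrocnemius (median 1.56). There 18 had mdx above WT on every array, against 4.15% of all genes. In heart 3 members had all mdx arrays below all WT arrays, against 3.90% of all genes. They were Gpnmb and Tyrobp, a glycoprotein and a signalling adaptor of macrophages, and Ms4a7, a surface protein of tissue macrophages, named after its values were seen. Gpnmb read 5.49, 5.56 and 6.13 in mdx hearts, against 6.35, 6.39 and 9.98 in WT hearts (-1.85 ± 0.80), with WT replicate 3 far above the others. Mpeg1, a pore-forming protein of macrophages, read 7.77, 8.22 and 7.59 in mdx hearts, against 7.90, 9.12 and 9.21 in WT hearts, and the groups overlapped. Ctss, the protease cathepsin S, differed by -0.79 ± 0.45. Without mdx replicate 2 the macrophage median was -0.12, and without any other array it was as low as -0.50. The summed macrophage signal was 13.88 to 14.18 in mdx hearts and 13.95 to 14.73 in WT hearts on the log2 scale. All 12 members of the antigen presentation list read lower in mdx hearts (median -0.36), 2 of them without overlap, against 3.90% of all genes. Among these 2 was H2-Aa, a class II chain (9.79, 9.82 and 9.82 in mdx hearts, against 10.07, 10.53 and 10.40 in WT hearts). Of 17 interferon response genes 14 read lower (median -0.24), and of 18 cytokines and chemokines 12 (median -0.35). Il1rn, which encodes the interleukin 1 receptor antagonist, read 3.45, 3.99 and 3.94 in mdx hearts, against 4.44, 4.91 and 5.82 in WT hearts. Its mdx values all lay below the filter cut of 4.78 log2. Of 21 cell cycle genes 18 read lower (median -0.38). Only 1 of the 21 had groups that did not overlap, against 3.90% of all genes with mdx below WT. It was E2f1, a transcription factor of S phase entry (-0.68 ± 0.47). Single arrays moved these medians too. Without mdx replicate 2 they were -0.16 for antigen presentation and -0.09 for the interferon response, without mdx replicate 1 the cytokine median was -0.11, and without mdx replicate 3 the cell cycle median was -0.19.

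Most genes of the cardiac stress and fetal programme read lower in mdx hearts. Of 22 members tested, 17 read lower and 5 higher (median -0.37, and -0.10 without mdx replicate 2). Among them 4 had all mdx arrays below all WT arrays, against 3.90% of all genes. Besides Postn these were Edn1, Ankrd23 and, named after its values were seen, Ccn2. Edn1, which encodes the vasoconstrictor endothelin 1, read 5.97, 5.96 and 6.70 in mdx hearts, against 7.35, 6.80 and 6.83 in WT hearts. Ankrd23, a stretch-responsive protein of the sarcomere, read 9.47, 9.53 and 9.83 in mdx hearts, against 10.56, 10.16 and 10.75 in WT hearts. Rcan1, a calcineurin target and inhibitor, differed by -0.69 ± 0.42 with overlap. Nppb, the ventricular natriuretic peptide, read 11.13, 8.87 and 10.79 in mdx hearts, against 11.64, 10.87 and 11.75 in WT hearts. Its atrial relative Nppa (13.08, 12.02 and 12.83 in mdx hearts, against 12.30, 12.21 and 13.07 in WT hearts) and the slow myosin Myh7 (8.72, 10.23 and 9.14 in mdx hearts, against 9.39, 8.77 and 11.82 in WT hearts) overlapped.

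Single heat shock and immediate early genes read lower in mdx hearts. Hspa1b and Hspa1a encode the inducible Hsp70 chaperone in near-identical copies, so probe sets named for one may read both. A Hspa1b probe set read 4.16, 3.74 and 4.24 in mdx hearts, against 7.67, 6.09 and 5.20 in WT hearts (-2.28 ± 0.71). Hspa1a read 3.25, 3.39 and 3.27 in mdx hearts, against 6.41, 4.71 and 4.09 in WT hearts (-1.77 ± 1.06). Both kept the groups apart, with WT replicate 1 highest. The mdx values of both lay below the filter cut of 4.78 log2. The brightest Hspa1b probe set overlapped (8.42, 9.24 and 8.35 in mdx hearts, against 11.52, 11.12 and 9.03 in WT hearts). Hsp90aa1, another inducible chaperone, overlapped at its brightest probe set (-0.50 ± 0.38), and the median over 21 members of the heat shock list was -0.14. Of 20 immediate early genes 11 read higher and 9 lower (median 0.02), 1 and 2 of them without overlap, against 3.97% and 3.90% of all genes. Egr2, a growth response factor, read 6.69, 7.65 and 6.11 in mdx hearts, against 8.35, 9.47 and 8.12 in WT hearts. Egr3, of the same family, was likewise lower on all mdx arrays (-1.33 ± 1.03), while its other probe set differed by 0.21. Zfp36, which destabilises cytokine transcripts, lay above WT on all mdx arrays (8.76 to 9.26 in mdx hearts, against 8.15 to 8.48 in WT hearts). The stress factor Atf3 differed by -1.08 ± 0.68 with overlap.

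The promoters of Sprr1a and of both Hsp70 genes are shown because all 3 genes are stress-responsive and read lower on every mdx heart array at a probe set above. Each runs from 250 bases before to 50 bases from the transcript start, 5′ to 3′ along the gene, from RefSeq (GRCm38.p6). They lie at chr3:92485832-92486131, minus strand for Sprr1a, chr17:34959189-34959488, minus strand for Hspa1b and chr17:34972107-34972406, minus strand for Hspa1a. Capitals mark TGANTCA, the AP-1 motif, in Sprr1a and GAANNTTC, a core of heat shock elements, in both Hsp70 genes.
Sprr1a: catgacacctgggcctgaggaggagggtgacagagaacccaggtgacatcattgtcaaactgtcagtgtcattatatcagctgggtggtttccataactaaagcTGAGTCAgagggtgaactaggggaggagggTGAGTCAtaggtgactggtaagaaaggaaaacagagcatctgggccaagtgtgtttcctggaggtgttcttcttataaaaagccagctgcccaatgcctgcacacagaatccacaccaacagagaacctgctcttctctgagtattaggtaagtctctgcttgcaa
Hspa1b: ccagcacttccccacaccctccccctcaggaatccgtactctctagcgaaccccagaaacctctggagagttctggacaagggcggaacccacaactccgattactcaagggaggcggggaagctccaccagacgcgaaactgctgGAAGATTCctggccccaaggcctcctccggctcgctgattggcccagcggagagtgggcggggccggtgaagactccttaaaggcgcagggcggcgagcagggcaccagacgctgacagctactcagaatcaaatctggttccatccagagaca
Hspa1a: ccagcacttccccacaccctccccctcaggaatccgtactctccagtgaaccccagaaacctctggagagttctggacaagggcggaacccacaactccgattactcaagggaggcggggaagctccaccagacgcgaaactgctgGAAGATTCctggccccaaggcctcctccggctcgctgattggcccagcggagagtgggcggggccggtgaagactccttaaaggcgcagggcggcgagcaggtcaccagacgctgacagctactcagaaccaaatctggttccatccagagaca
The Sprr1a window held 2 matches, and each Hsp70 window 1 match that starts at position -104. Both motifs read the same on both strands. TGANTCA was found in 7.81% and GAANNTTC in 7.86% of all 32851 promoter windows of this length. The Hsp70 windows shared 296 of 300 bases. A match describes letters in the sequence and no binding was measured.

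Cmah KO mdx and Cmah KO hearts gave a second reading of dystrophin loss. Their values do not enter the mdx and WT means, but these hearts share the fit and its estimate of the spread. In Cmah KO mdx against Cmah KO hearts, without the 2 arrays that stood apart, Sprr1a differed by -2.07 ± 0.45. Including all arrays, it read 4.08, 4.89 and 4.99 in Cmah KO mdx hearts, against 6.51, 6.70 and 6.65 in Cmah KO hearts. For Sprr1a all 6 hearts without dystrophin lay below all 6 with it. This held for 16 of 13128 genes (0.122%), and the reverse for 11 (0.0838%), with the 2 arrays that stood apart included. Whether these counts exceed those of a random split of the arrays was not tested. Among the 16 were Postn, Fbn2 and 3110040M04Rik, and, named after their values were seen, Ptn, the growth factor pleiotrophin, and Cpxm2, a secreted carboxypeptidase-like protein. Ptn read 9.17, 8.78 and 8.83 in mdx hearts and 9.10, 9.22 and 8.88 in Cmah KO mdx hearts, against 9.60, 10.27 and 10.08 in WT hearts and 9.85, 9.57 and 11.10 in Cmah KO hearts. The values 9.22 and 11.10 came from the 2 arrays that stood apart. Among the 11 were Acot1 and, named after its values were seen, Cox6b2, a testis-type subunit of cytochrome oxidase. Cox6b2 read 6.68, 7.33 and 6.39 in mdx hearts and 7.42, 6.94 and 7.14 in Cmah KO mdx hearts, against 5.76, 5.36 and 6.18 in WT hearts and 6.07, 6.24 and 6.07 in Cmah KO hearts. The 12 hearts split by strain label in the same way. The test of Cmah KO mdx against Cmah KO hearts called 0 probe sets (0%, 568 at an unadjusted p below 0.05), and that of the difference between both readings in heart called 0 (143 at an unadjusted p below 0.05).

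All 30 matrix genes read lower in Cmah KO mdx than in Cmah KO hearts without the 2 deviating arrays, with a median of -0.47, where 7021 of 13128 genes read lower. The macrophage list had a median of 0.02 in that reading, with 11 of 24 members lower. The Hspa1b probe set given above differed by -2.35 ± 0.71, Nox4 by -1.43 ± 0.49 and Col8a2 by -1.60 ± 0.55. Ereg differed by -0.51 ± 0.74 and Cthrc1 by -0.17 there. Of the 15 lower probe sets named by the rule 13 read lower in that reading, with a median of -0.76. Of the 15 higher ones 10 read higher, with a median of 0.14. Acot1 differed by 0.99, Ankrd63 by 0.73, Art5 by 0.62, Ucp3 by 0.26, Ky by 0.14 and Lzts1 by 0.11, whereas Pttg1 differed by -0.20, H3c11 by -0.67, Fasn by -0.69 and Otop1 by -0.999.

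At the upper end, the smallest p values belonged to genes in 1 stretch of chromosome 11, with other genes of the array between them. A Uqcr10 probe set read 7.97, 7.84 and 9.07 in mdx hearts, against 5.81, 5.81 and 5.53 in WT hearts (2.58 ± 0.43), and a second one read 7.77, 8.07 and 8.93 in mdx hearts, against 5.01, 2.95 and 4.53 in WT hearts (4.09 ± 0.74). Uqcr10 encodes a small subunit of respiratory complex III. Its brightest probe set read 12.23, 12.26 and 12.38 in mdx hearts, against 12.37, 12.42 and 12.30 in WT hearts, so the probe sets of this gene disagree. Dusp18, a phosphatase, read 8.06, 8.56 and 9.37 in mdx hearts, against 5.43, 3.77 and 5.44 in WT hearts (3.78 ± 0.76), while its other probe set overlapped (0.10 ± 0.77). Sf3a1, a splicing factor subunit, read 7.86, 7.97 and 8.58 in mdx hearts, against 6.41, 4.37 and 5.87 in WT hearts (2.59 ± 0.62), while 2 other probe sets differed by 0.57 ± 0.77 and 0.75 ± 0.84. The WT values 2.95 and 4.53 of Uqcr10, 3.77 of Dusp18 and 4.37 of Sf3a1 lay below the filter cut of 4.78 log2. Pik3ip1, an inhibitor of phosphoinositide 3-kinase, and Rasl10a, a small GTPase, lie in the same stretch and differed by 1.33 ± 0.53 and 1.29 ± 0.55. Ube2d-ps, a pseudogene there, read higher at 1 probe set (1.25 ± 0.43) and lower at another (-0.78 ± 0.68). In the order of genes on the array along chromosome 11, Pik3ip1 was number 6, Dusp18 number 18, Sf3a1 number 29, Uqcr10 number 37, Rasl10a number 46 and Ube2d-ps number 57. Of the 100 probe sets with 1 gene symbol and the smallest p (up to 0.0556, unadjusted), 17 probe sets of 14 genes lay on chromosome 11, which carries 8.00% of the tested probe sets with 1 symbol. The 100 belong to 91 genes. Chromosome 1 held 13 of these probe sets, from 11 genes, and carries 6.17% of the tested probe sets with 1 symbol. Not all 17 on chromosome 11 lay in the stretch above, since Pttg1 was number 220 and Fasn number 1420.

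Most of these probe sets also read higher on every array of mdx gastrocnemius. Uqcr10 read 8.23, 9.22 and 7.87 in mdx gastrocnemius, against 4.07, 3.89 and 2.74 in WT gastrocnemius at the probe set with the wider gap, and Sf3a1 read 7.17, 7.22 and 7.18 in mdx gastrocnemius, against 5.57, 5.20 and 4.94 in WT gastrocnemius. Pik3ip1 and Rasl10a overlapped in gastrocnemius. In Cmah KO mdx against Cmah KO hearts the same probe sets overlapped. At the Uqcr10 probe set with the wider gap the values were 4.17, 5.56 and 5.27 in Cmah KO mdx hearts, against 2.99, 4.93 and 5.66 in Cmah KO hearts, and Dusp18 read 3.95, 3.95 and 5.75 in Cmah KO mdx hearts, against 3.46, 6.06 and 5.42 in Cmah KO hearts. At these Uqcr10 and Dusp18 probe sets the Cmah KO mdx hearts read near the WT hearts. The cause of their gap to the mdx hearts was not tested. The difference between both readings was -3.69 for Dusp18 and -2.82 for Sf3a1 without the 2 deviating arrays, and neither passed limma's adjusted threshold.

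**Figure D3:**
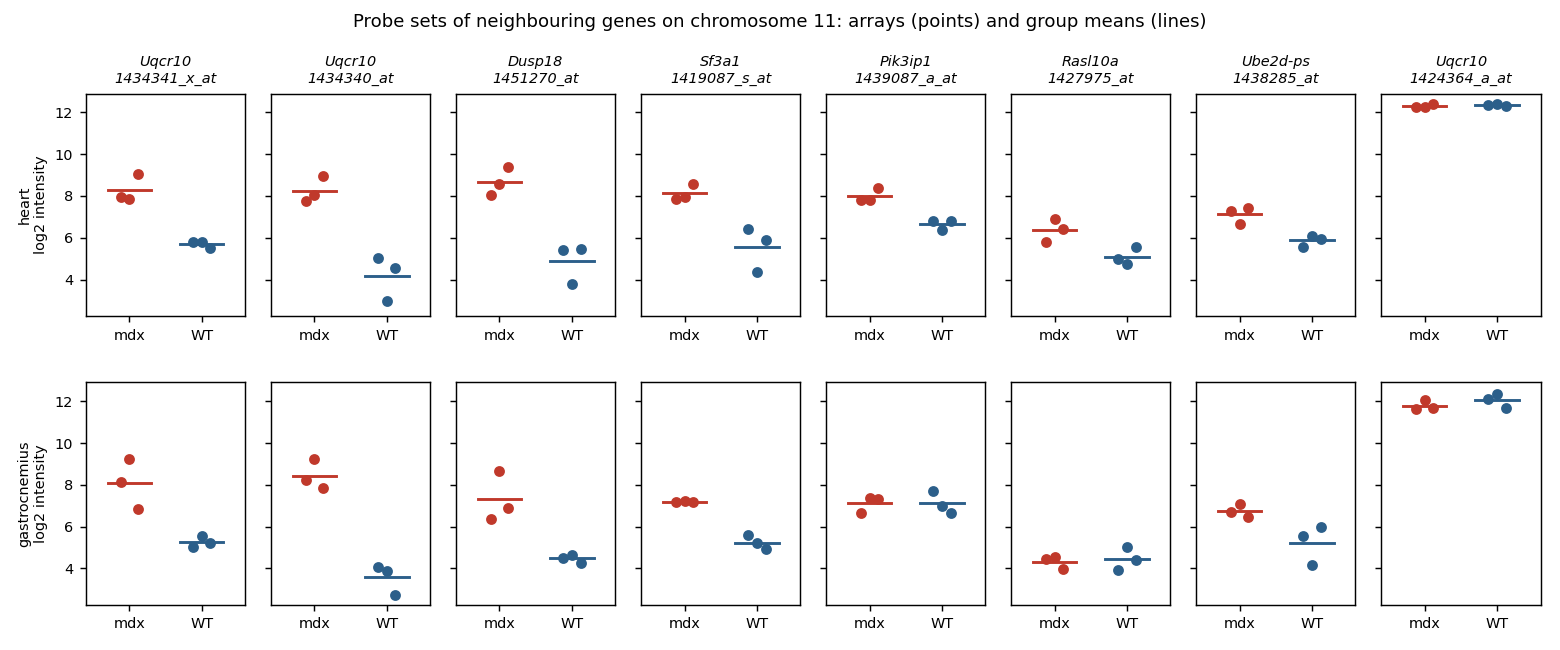
Log2 intensity on each mdx array (left, red) and WT array (right, blue) in heart (upper row) and gastrocnemius (lower row) for 8 probe sets of 6 neighbouring genes on chromosome 11, with lines at the group means. The first 4 probe sets lie higher in mdx in both tissues, whereas the brightest Uqcr10 probe set, at the far right, stays between 11.63 and 12.42 in both groups.

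Other genes that read higher in mdx hearts included metabolic and muscle genes. Ucp3, the mitochondrial uncoupling protein of muscle, read 7.55, 8.76 and 8.53 in mdx hearts, against 6.84, 6.79 and 6.70 in WT hearts (1.50 ± 0.46). Acot1, a cytosolic acyl-CoA thioesterase, read 7.79, 7.85 and 7.94 in mdx hearts, against 6.78, 6.10 and 6.69 in WT hearts (1.34 ± 0.45). In both genes all mdx arrays lay above all WT arrays. Of 26 fatty acid genes tested, 19 read higher (median 0.09, and 0.0018 without WT replicate 2). In 4 of them, against 3.97% of all genes, all mdx arrays lay above all WT arrays. Among these was Slc27a1, a fatty acid transporter (10.95 or more in mdx hearts, against 9.65 to 10.50 in WT hearts), named after its values were seen. Fasn, the fatty acid synthase, differed by 1.45 ± 0.54 with overlap, and its value in mdx replicate 2 was 6.87, against 8.64 and 8.91 in the other mdx hearts. Ky, a muscle peptidase whose loss causes kyphoscoliosis in mice, read 8.09, 8.18 and 8.02 in mdx hearts, against 7.37, 6.42 and 6.92 in WT hearts (1.20 ± 0.39). Ankrd63 (1.93 ± 0.50), Art5, an ADP-ribosyltransferase (1.24 ± 0.46), H3c11, a histone H3 gene (1.34 ± 0.50), and Lzts1, a leucine zipper protein (0.98 ± 0.37), also had all mdx arrays above all WT arrays. H3c11 read 4.87, 4.71 and 5.53 in mdx hearts, against 2.91, 4.56 and 3.62 in WT hearts. Its WT values and the mdx value of 4.71 lay below the filter cut of 4.78 log2. So did the Ankrd63 values of 4.40 and 3.82 in WT hearts. Pttg1, the mitotic regulator securin, read 7.52, 11.20 and 10.44 in mdx hearts, against 7.85, 7.97 and 7.49 in WT hearts, and Otop1, a proton channel, 5.46, 3.45 and 6.56 in mdx hearts, against 3.08, 4.35 and 2.25 in WT hearts. In these 2 genes 1 mdx array lay among the WT arrays. All WT values of Otop1 and its mdx value of 3.45 lay below the filter cut. The 27 respiratory chain genes (median -0.01) and the 22 sarcomere genes (median 0.04) had medians near that of all genes.

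Regulators of heart rhythm and identity read higher in mdx than in WT hearts in most cases. Tbx5, a transcription factor of the atria and conduction system, read 9.65, 9.27 and 9.03 in mdx hearts, against 7.73, 8.64 and 8.35 in WT hearts (1.07 ± 0.53). Gata6, a cardiac zinc finger factor, read 8.98, 8.81 and 8.68 in mdx hearts, against 8.50, 7.75 and 8.66 in WT hearts. In both genes the groups did not overlap, although Gata6 in WT replicate 3 came close. Of 15 cardiac transcription factors 14 read higher in mdx (median 0.18). Of 20 ion channel genes 17 read higher (median 0.40), and 2 lay above WT on every mdx array, against 3.97% of all genes. Among them was Kcnh2, the channel of the rapid delayed rectifier current (8.08, 8.32 and 8.19 in mdx hearts, against 7.31, 6.66 and 7.90 in WT hearts). Kcnj2, the inward rectifier, differed by 0.64 ± 0.52 and Hcn2, a pacemaker channel, by 0.39 ± 0.38, both with overlap. The median of the ion channel list was 0.13 without WT replicate 2, which held the lowest Kcnh2 value. In Cmah KO mdx against Cmah KO hearts, without the 2 deviating arrays, the ion channel median was 0.03, with 11 of 20 higher. There the cardiac transcription factors had a median of 0.13, with 10 of 15 higher. In gastrocnemius the medians were -0.12 for ion channels and -0.04 for transcription factors. In the red blood cell list 2 of 3 members tested lay above WT on every mdx array, against 3.97% of all genes. The other 5 of the 8 genes listed were not tested. Alas2, the heme synthesis enzyme of erythroid cells, read 8.32, 7.40 and 8.02 in mdx hearts, against 6.58, 6.80 and 6.81 in WT hearts. The signal summed over these 3 members was 9.97 to 10.57 in mdx hearts and 9.49 to 9.68 in WT hearts. Its part in other differences was not tested.

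**Figure D4:**
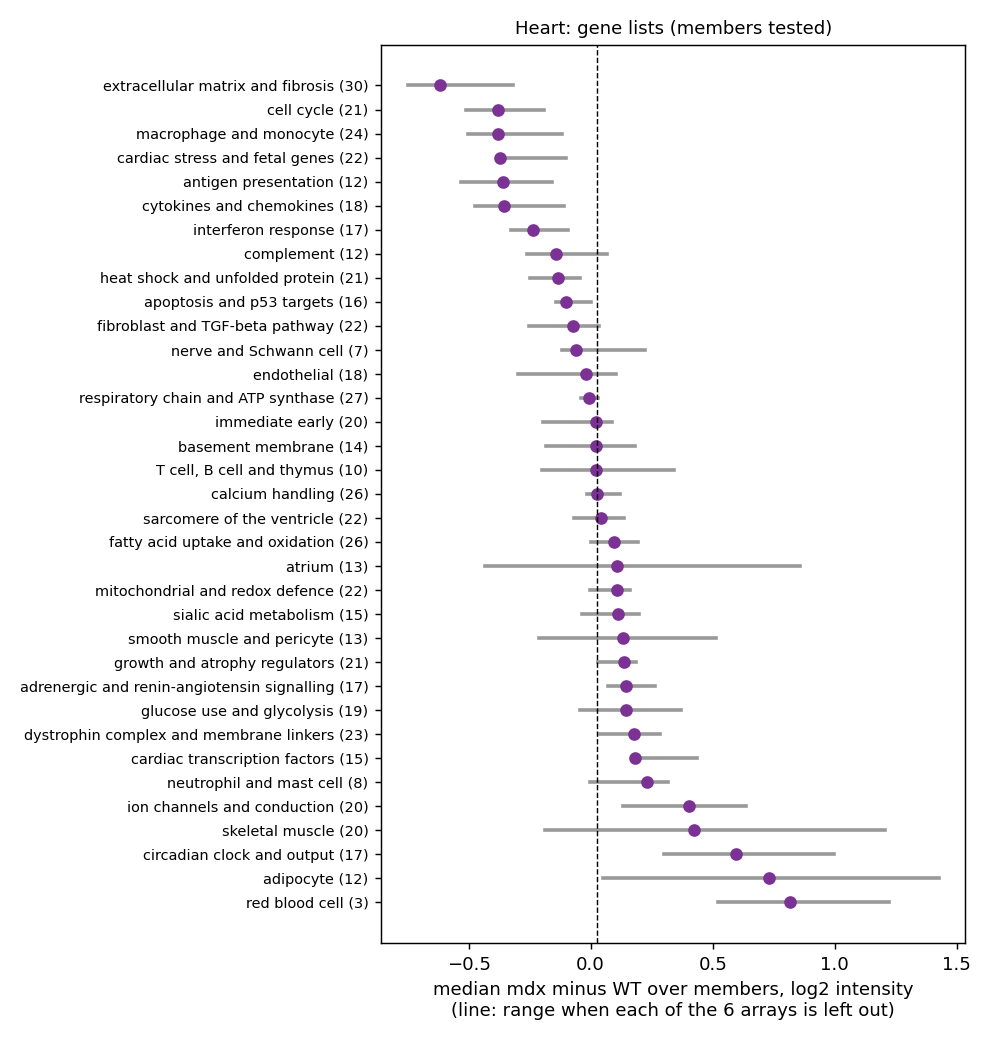
Median difference, mdx minus WT heart, in log2 intensity over the tested members of each of 35 gene lists (points), with the number of members in brackets and grey lines for the range when each of the 6 arrays was left out; the dashed line is the median of all genes, 0.03. The matrix list has the lowest median (-0.62), and the wide lines of the adipocyte, skeletal muscle and atrium lists show how far 1 array moves them.

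Most clock genes read higher in mdx hearts. The circadian list had a median of 0.60 over 17 members, with 14 higher and 6 above WT on every mdx array, against 3.97% of all genes. Dbp, a clock output factor, read 11.58, 11.65 and 11.68 in mdx hearts, against 9.90, 9.76 and 11.48 in WT hearts (1.25 ± 0.58). Ciart, a repressor of the clock, read 8.58, 8.13 and 8.84 in mdx hearts, against 7.29, 5.37 and 7.92 in WT hearts (1.66 ± 0.92). Tef, an output factor of the Dbp family, read 10.95, 10.70 and 10.69 in mdx hearts, against 9.49, 9.34 and 10.91 in WT hearts. In all 3 genes WT replicate 3 lay nearest to the mdx arrays, within them for Tef, and the other 2 WT arrays lower. Cry2, a core repressor, overlapped through the same WT array (8.77, 8.98 and 8.46 in mdx hearts, against 7.25, 6.45 and 8.86 in WT hearts). Per1, Per3 and Hlf, named after their values were seen, also lay above WT on every mdx array, at 0.85 ± 0.67, 1.17 ± 1.17 and 0.78 ± 0.76. The list median was 0.30 without WT replicate 2 and 1.00 without WT replicate 3. The median deviation over the list from the 6 arrays was 0.28 to 0.37 in mdx hearts, and -0.28, -1.01 and 0.28 in WT hearts. In Cmah KO mdx against Cmah KO hearts the list median was -0.19 without the 2 deviating arrays, and in gastrocnemius -0.01. The labels give no time of day of tissue collection, so its part in these values was not tested.

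The promoters of Ciart and Tef are shown because clock factors bind the E-box CACGTG, which capitals mark. They come from RefSeq (GRCm38.p6), from 250 bases before to 50 bases from the most upstream start, at chr3:95882179-95882478, minus strand for Ciart and chr15:81802423-81802722, plus strand for Tef.
Ciart: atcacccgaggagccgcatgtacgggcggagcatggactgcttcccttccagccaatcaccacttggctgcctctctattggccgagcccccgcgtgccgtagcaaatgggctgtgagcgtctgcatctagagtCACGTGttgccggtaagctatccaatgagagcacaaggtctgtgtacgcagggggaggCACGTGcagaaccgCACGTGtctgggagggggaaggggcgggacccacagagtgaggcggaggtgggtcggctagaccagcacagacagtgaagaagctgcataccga
Tef: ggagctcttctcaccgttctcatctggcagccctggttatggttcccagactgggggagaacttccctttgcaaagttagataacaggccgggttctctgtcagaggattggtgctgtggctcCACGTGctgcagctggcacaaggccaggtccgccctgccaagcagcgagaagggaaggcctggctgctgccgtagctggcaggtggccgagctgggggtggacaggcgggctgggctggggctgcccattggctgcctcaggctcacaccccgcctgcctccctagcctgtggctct
Ciart held 3 matches, at positions -116, -58 and -44, and Tef 1 at position -127. CACGTG reads the same on both strands and was found in 7.15% of all 32851 windows, and in a window of 5 of the 15 clock genes that matched the table by symbol.

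Markers of other tissues varied widely between single arrays. The atrial light chain Myl7 read 13.01, 8.08 and 12.83 in mdx hearts, against 12.31, 11.45 and 12.43 in WT hearts, and the summed atrial list was 13.95 in mdx replicate 2, against 14.41 to 15.44 on the other 5 arrays. Adipoq, a fat cell hormone named after its values were seen, read 10.10, 3.83 and 8.47 in mdx hearts, against 6.66, 7.53 and 6.41 in WT hearts. mdx replicate 2 was thus low in atrial and fat cell markers, and the summed adipocyte list was 13.29 to 14.39 in mdx hearts and 13.57 to 13.73 in WT hearts. Myh1, a fast skeletal myosin, read 7.19, 9.24 and 9.10 in mdx hearts, against 8.78, 5.56 and 6.59 in WT hearts. Summed skeletal muscle signal spanned 13.40 to 14.87 in mdx hearts and 12.63 to 14.97 in WT hearts, with all of these lists overlapping between the groups. Their part in the differences above was not tested.

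**Figure D5:**
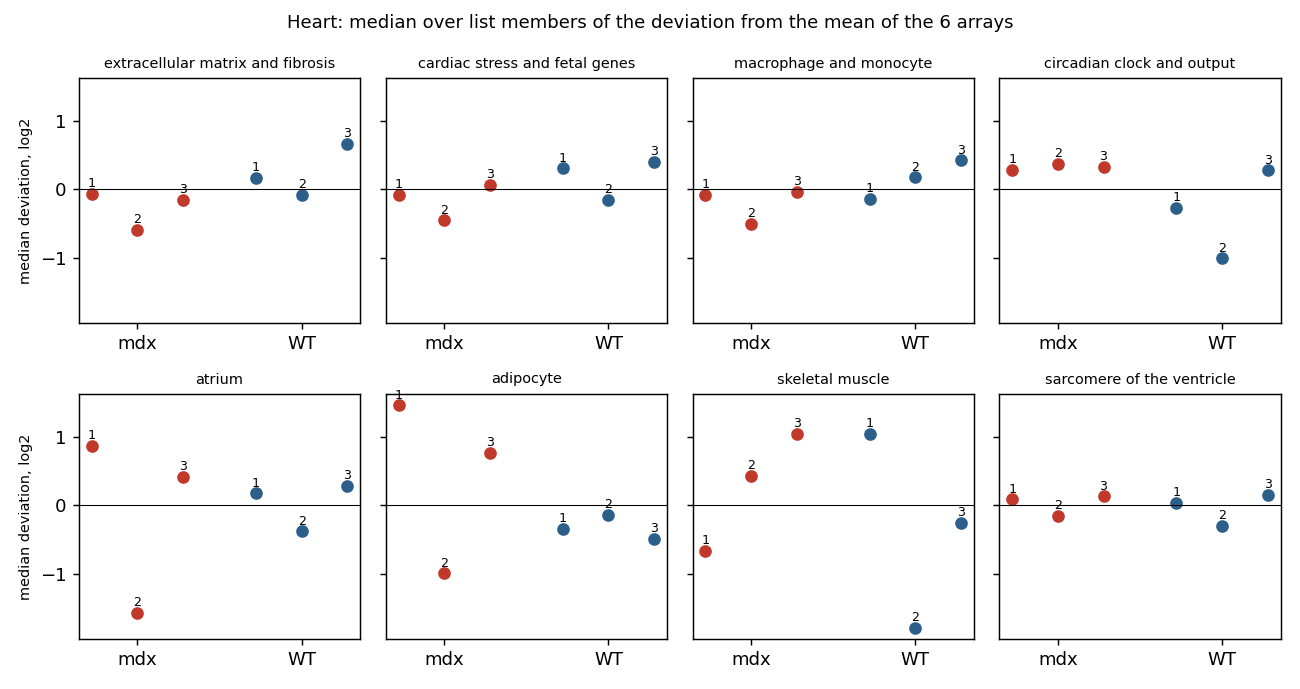
Median over the members of 8 gene lists of the deviation of each heart array from the mean of the 6 arrays, in log2 units; mdx arrays are at the left in red, WT arrays at the right in blue, and digits are replicate numbers. The circadian list lies at 0.28 to 0.37 in mdx and at -1.01 in WT replicate 2, and the atrium list falls to -1.58 in mdx replicate 2.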

How the data were processed

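Per the labels' protocols, total RNA was extracted with Trizol, purified on silica columns, and 25 ng was amplified with a NuGEN Ovation kit for Affymetrix mouse arrays. GCOS and RMA, whose versions are not given in the sources used here, made the values, per the submitters' processing notes. The deposited values are linear intensities of 45101 probe sets. The 64 control probe sets were left out and log2 was taken. By the platform annotation 34945 probe sets had 1 gene symbol, 932 had several, 9160 had no symbol, and 34741 matched a gene of RefSeq's GRCm38.p6 table, used for symbols and gene order.

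Tests took the probe sets that exceeded the 40th percentile (4.78 log2) on 3 or more of the 12 heart arrays. A probe set could pass through a single group, and other groups may then lie below the cut. One mean per genotype was fitted over the 12 heart arrays with limma 3.58.1 in R 4.3.3 (lmFit, eBayes, two-sided, Benjamini-Hochberg adjusted p below 0.05). Tissue differences were fitted over the 24 arrays with the mouse as random effect (consensus correlation 0.217). The fit was also run on simulated data. That run does not show how the fit performs on these arrays, and no conclusion is drawn from it. Lists were read from the brightest probe set per gene with 1 symbol: of 724 entries in 35 lists, 623 were tested. Named are Dmd, Cmah, Nnt, the 15 probe sets with the smallest p in each direction, and up to 4 members per list by p, with exceptions marked in the text. The members and lists were chosen with earlier results of these data known. The labels number the arrays but do not say that numbers pair the mice: deviations of same-numbered mdx and WT hearts correlated at -0.01, 0.64 and 0.20, so numbers were not used as pairs. The p-values measure the spread between these arrays, whose number limits the precision, and each array came from 1 mouse by the animal numbers in the labels.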

Additional observations from a re-analysis of the deposited data

Results flagged for a closer look

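Without the 2 heart arrays that stood apart, 8 probe sets passed limma's test of the difference between heart and gastrocnemius in mdx minus WT, which none did with all arrays. The values are heart minus gastrocnemius on the log2 scale. They were 2.90 for Cdh4, a neuronal cadherin, 3.06 for Dusp26, a phosphatase, and 2.77 for 0610040J01Rik. They were -2.58 for Pclo, a synaptic scaffold, -2.53 for Cilp, -2.39 for Tubb2b, a beta tubulin, -2.16 for Maged2 and -2.10 for a probe set with no gene symbol. For Cdh4 and Dusp26 the heart groups overlapped (-0.15 and 0.25), and the gastrocnemius differed by -3.05 and -2.81. Cilp and Tubb2b had groups apart in both tissues, in opposite directions. In heart, groups of 3 arrays were not examined for outlying values.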

How the results depend on the processing

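With mdx minus WT in heart, 0 probe sets passed in the main test, with the 6 arrays alone, quantile normalization, median centring, either other filter, a trended robust fit, all 24 arrays, any 1 of the 6 arrays left out, without the 2 deviating arrays, or without both arrays numbered 2. Array weights gave 133. Settings chosen after the data were seen gave 11 (weights over the 6 arrays), 4 (Gapdh difference as a covariate over 10 arrays) and 2 (weights without WT replicate 1). Of the 94 named probe sets, 31, 8, 3 and 1 passed in these settings, and 0 otherwise. With replicate number as a block, 0 passed in heart (85 at an unadjusted p below 0.05). In gastrocnemius 5 passed, 8 with quantile normalization, 9 with array weights, and 1 to 9 with 1 array left out. The tissue difference called 0, with 0 to 3 when 1 array was left out (3 without gastrocnemius WT replicate 1, 1 without heart WT replicate 2) and 8 without the 2 deviating arrays. The cause of these changes was not tested.

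Some differences changed sign. At another probe set Uqcr10 was -0.0699, Ube2d-ps -0.78, Cep85 0.46, Dmd 0.68, Cmah -0.36, Utrn -0.21 and Egr3 0.21. Array weights gave Utrn -0.0330, Myl7 0.0709 and Myh1 -0.13, and over the 6 arrays Utrn -0.0618, Myl7 0.14 and Myh1 -0.36. Weights without WT replicate 1 gave Cmah -0.28 and Myl7 0.38, and leaving out both arrays numbered 2 gave Myl7 0.55. With 1 array left out, the values ranged from -0.47 to 0.99 for Cmah, -0.0047 to 0.20 for Nnt, -0.10 to 0.43 for Nppa, -1.24 to 0.28 for Myh7 and -1.61 to 0.86 for Myl7. Of 1930 values of single genes 1905 kept their direction, of which 43 newly passed, and 25 changed sign. A kept direction was likely from the start. Most of these genes were named by their p in this same comparison, and the settings reuse its arrays. Of 700 list medians 57 had the opposite sign, in 18 of the 35 lists, among them skeletal muscle (0.42, against -0.19 without WT replicate 2 and -0.77 with weights over the 6 arrays), atrium (0.11, against -0.43 without mdx replicate 1), immediate early (0.02, against -0.33 with weights over the 6 arrays) and complement (-0.14, against 0.12 with those weights). With 3 arrays per group, the number of arrays limits what the test can detect.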
